A study of Bos taurus with 6 samples.

Results

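Genes of the ubiquitin and proteasome system were examined in bovine mammary epithelial cells after transfection with an inhibitor of miR-375. DZIP3 was taken by name, and the other members were taken where their symbol began with a stem of the ubiquitin and proteasome families (UBE, UBA, USP, OTU, RNF, TRIM, FBX, CUL, KLHL, ASB or PSM, among 20 stems searched) and their identifier was listed in the counts of each library. USP18, HERC5 and HERC6 were left out. These criteria gave 32 genes of 29154. Symbols were paired with 1410 of the identifiers, so many other genes of these families were not analysed here.

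The cells were MAC-T, an established line of bovine mammary epithelium grown in DMEM/F12 with fetal bovine serum, and both groups shared that line and culture. One group was transfected with 100 nM of inhibitor NC, a negative control oligonucleotide, and the other with 100 nM of miR-375 inhibitor. All cells were collected 48 h later. Poly(A) RNA was sequenced in 3 libraries of each group. As a model, the data hold a single line, a transient transfection and a single time. The labels do not say whether the 3 libraries of a group came from separate cultures on separate days, so p-values measure only the spread between these samples.

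Ubiquitin is activated by an E1 enzyme, passed to an E2 enzyme and joined to a target protein with the help of an E3 ligase, which chooses the target. Many ligases carry a RING domain, and cullin ligases bring in their targets through exchangeable adaptors such as F-box, kelch-like and SOCS-box proteins. Deubiquitinases remove the ubiquitin again, and the proteasome degrades proteins that carry suitable chains.

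Counts summed to 14479278, 16213226 and 16047812 in inhibitor NC replicates 1, 2 and 3. In miR-375 inhibitor replicates 1, 2 and 3 they summed to 15228121, 14903099 and 16324556. The ranges of both groups overlapped. Values below are normalized counts, that is, counts scaled to a common library size, unless raw counts are named. They depend on transcript length as well as on abundance, so they are no measure of transcript level between genes. In such bulk samples, fewer cells of a type and less RNA per cell cannot be told apart.

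The label of the cells was checked against marker genes. Of 7 epithelial markers, all had a count, and CXADR, the one with the most counts, had 894 to 1220 raw counts in a library. NECTIN3 had 818 to 994 raw counts, TP63 had 4 to 16, and RIPK4 and MUC20 had at most 4. The summed epithelial markers were 2199, 2232 and 2264 with inhibitor NC and 2026, 1957 and 2179.8 with the miR-375 inhibitor. Every miR-375 inhibitor library was below every inhibitor NC library in this sum. By gene, only CLDN1 and TP63 were lower without overlap, while the groups of CXADR, NECTIN3, LIPH, RIPK4 and MUC20 overlapped. The estimates of RIPK4 and MUC20, at low counts, were above 0. Among these markers CLDN1, a tight junction gene, had 213, 173 and 154 with inhibitor NC and 133, 119.8 and 120.4 with the miR-375 inhibitor. Its log2 fold change was -0.53 ± 0.13 (SE) (edgeR quasi-likelihood, Benjamini-Hochberg adjusted p = 0.0219). In edgeR over genes with at least 10 counts in total, after filterByExpr and without inhibitor NC replicate 1, 0 genes were called at an adjusted p under 0.05, CLDN1 included, with 1972, 1844 and 1543 genes at an unadjusted p under 0.05. The part of these and of the other cell markers in the differences below was not tested.

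Markers of other cells were mostly near 0. The 7 immune markers summed to 15 to 26 raw counts in a library, CD96 giving more than any other marker, and BTK, WAS and SASH3 at 0 in at least 4 libraries each. After normalization this sum was 16.0, 16.2 and 18.2 with inhibitor NC and 26.8, 19.96 and 19.1 with the miR-375 inhibitor, higher without overlap. HCLS1 gave 7 of the raw counts of miR-375 inhibitor replicate 1 and at most 2 in each other library, and the estimates of WAS, SASH3 and IL2RG, at low counts, were below 0. The endothelial gene ERG had 1 count in 1 library, and the neuronal genes SYP and DCX had at most 6. Of 5 stromal markers, COL6A1 had 11738 to 13993 raw counts and COL6A2 had 1751 to 1962, while LUM had 11, 7 and 0 with inhibitor NC and 0, 0 and 2 with the miR-375 inhibitor, BGN had at most 4 and COL8A1 at most 2. The summed stromal markers were 14264 ± 263 (SD, n = 3) with inhibitor NC and 15326 ± 297 (SD, n = 3) with the miR-375 inhibitor, without overlap. Nearly all of this sum came from COL6A1 and COL6A2, and the estimates of the other 3 stromal markers, at low counts, were below 0. Keratins and caseins were not analysed here.

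Of the members, 1 was called lower with the miR-375 inhibitor, DZIP3, a RING ligase. That call was lost under both count filters, with DESeq2 without independent filtering and without inhibitor NC replicate 1, where 0 members were called. Of the 32 members, 29 had at least 1 count and were tested. The other 3 were TRIM42, KLHL4 and USP26, each at 0 in all 6 libraries. FBXO40 had at most 1 count in a library, and so did KLHL6, so no fold change is given for these genes. In edgeR's quasi-likelihood test, 1 of the 29 had an adjusted p under 0.05, where 1.69% of all 20755 genes tested did. That member was lower with the inhibitor, as were 1.2% of all genes. The other 28 were not called. The called member is DZIP3, which was put on the list because its difference was known, so this count and the counts below that include it are descriptions, and nothing is read from them against the share of all genes.

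At an unadjusted p under 0.05 there were 3 members, DZIP3, TRIM59 and USP25, where 10.6% of all genes passed. All 3 were lower with the inhibitor, as were 5.96% of all genes. The count was 2 to 5 with a library left out, and the unadjusted p of TRIM59 was 0.0521 to 0.0585 in 4 of those 6 edgeR fits. The median log2 fold change over the 29 was -0.0014, beside -0.0019 over all genes tested. With a library left out it ran from -0.037 without inhibitor NC replicate 1 to 0.025 without inhibitor NC replicate 3, so its sign was not stable. Over the 27 members with at least 10 counts in total the median was -0.0125, with 15 below 0 and 12 above. The members together took 0.158% to 0.164% of the counts of a library. Their summed normalized counts were 24789.5 ± 435 (SD, n = 3) with inhibitor NC and 25087 ± 152 (SD, n = 3) with the miR-375 inhibitor, and the groups overlapped.

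In 8 of the 29 members every miR-375 inhibitor library was below every inhibitor NC library, where 7.09% of all genes were ordered so. In 6 members every miR-375 inhibitor library was above, where 7% of all genes were. Since genes near 0 seldom separate, the shares were also taken over better counted genes, limits that were chosen after the values were seen. With 10 or more counts on average, 29.6% of 27 members were separated downward and 22.2% upward, beside 8.83% and 9.06% of all such genes. With 100 or more counts on average, the shares were 27.3% and 22.7% of 22 members, beside 9.19% and 10.5%. The counts over the 29 members and the shares of the 27 include DZIP3, while those of the 22 do not. None of them was tested against the shares of all genes. Most of these separations were small: outside DZIP3, RNF128 and UBASH3A the 11 others had log2 fold changes from -0.29 to 0.13.

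**Figure D1:**
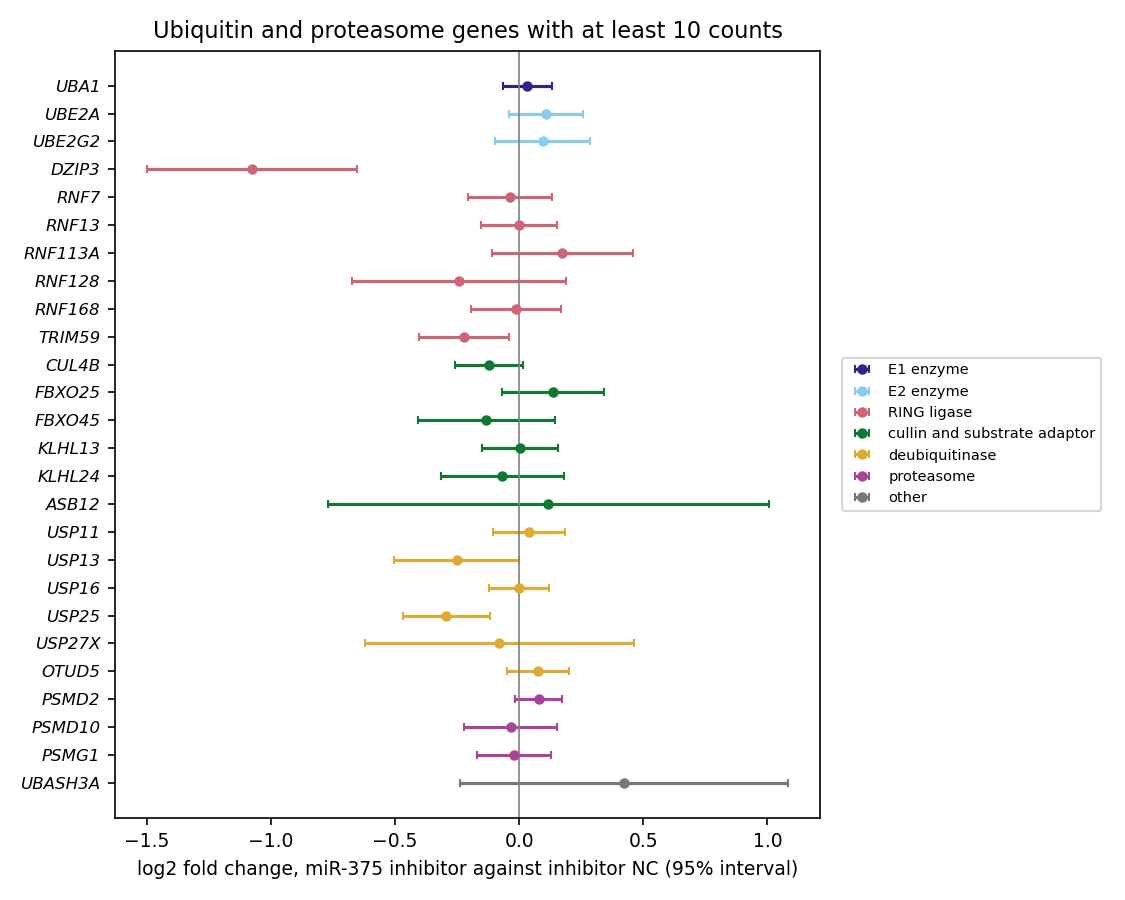
Log2 fold change of the miR-375 inhibitor against the inhibitor NC group (horizontal axis) for 26 of the 27 members with at least 10 counts, ordered and coloured by role; points are edgeR estimates and bars 95% intervals. DZIP3 lies at -1.08, and the intervals of DZIP3, TRIM59 and USP25 lie below 0.

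Of the E1 enzymes, UBA1, the main enzyme that activates ubiquitin, had 5188, 5029.5 and 5196 with inhibitor NC and 5228, 5331 and 5204 with the miR-375 inhibitor. The miR-375 inhibitor libraries were all higher, by a narrow margin. Its log2 fold change was 0.03 ± 0.05 (SE) (edgeR quasi-likelihood, Benjamini-Hochberg adjusted p = 0.838).

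Both E2 enzymes had estimates above 0, and neither was called. UBE2A, which works with a RING ligase on histones and on stalled replication, had 695, 661 and 678 with inhibitor NC and 751, 697 and 745 with the miR-375 inhibitor. The lowest miR-375 inhibitor library, replicate 2, lay just above the highest inhibitor NC library, replicate 1. This gave a log2 fold change of 0.11 ± 0.07 (SE) (edgeR quasi-likelihood, Benjamini-Hochberg adjusted p = 0.657.) UBE2G2, an enzyme of protein degradation at the endoplasmic reticulum, had a log2 fold change of 0.09, and its groups overlapped. How reads shared with the close paralog UBE2B were counted is not given in the sources used here, so the level of UBE2A is uncertain.

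Among the 8 RING ligases, 1 was called and 5 of the 7 with counts had estimates below 0. DZIP3 (ENSBTAG00000006158), an RNA-binding RING ligase that also acts on histones, had 62, 77 and 83 raw counts with inhibitor NC and 36, 23 and 44 with the miR-375 inhibitor. After normalization these were 66.0, 73.4 and 79.7 with inhibitor NC and 37.1, 24.2 and 42.0 with the miR-375 inhibitor. The groups did not overlap, and the lowest value of all was that of miR-375 inhibitor replicate 2. The means were 73.0 ± 6.82 (SD, n = 3) and 34.4 ± 9.23 (SD, n = 3), and the fitted level fell by 52.6%. The log2 fold change was -1.08 ± 0.21 (SE), with a 95% interval from -1.50 to -0.65 (edgeR quasi-likelihood, Benjamini-Hochberg adjusted p = 0.00125). It ranked 69 by p among all genes tested, lower in 3 of 3 libraries. DZIP3 was placed among the members by name because its difference in these libraries was known, so the difference is not independent evidence.

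The call of DZIP3 rested on the setting. In edgeR with Benjamini-Hochberg adjustment, the adjusted p was 0.126 over genes with at least 10 counts in total, 0.153 after filterByExpr and 0.274 without inhibitor NC replicate 1. DESeq2 without independent filtering gave 0.0716, in a range over all alternatives from 3.91e-06 to 0.274, and the estimate stayed between -1.25 and -0.88.

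TRIM59 (ENSBTAG00000008078), a membrane-anchored member of the tripartite motif family, had 428, 417 and 391 with inhibitor NC and 346, 339 and 374 with the miR-375 inhibitor. The miR-375 inhibitor libraries were all lower, and the gap was narrowest between the replicates numbered 3. Its log2 fold change was -0.22 ± 0.09 (SE), unadjusted p = 0.0179 (edgeR quasi-likelihood, Benjamini-Hochberg adjusted p = 0.304). RNF13, a ligase of endosomal membranes, had 649, 666 and 656 with inhibitor NC and 622, 662 and 687 with the miR-375 inhibitor. The inhibitor NC libraries lay inside the range of the others. The estimate was 0.00 ± 0.08 (SE) (edgeR quasi-likelihood, Benjamini-Hochberg adjusted p = 0.999).

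The remaining RING genes were not called. RNF7, a RING subunit of cullin ligases, had 447 to 448 in the inhibitor NC libraries and 431 to 444 in the others, at a log2 fold change of -0.04. RNF128, a membrane-bound ligase known from T cells, had 45.8 to 55.7 with inhibitor NC and 38.9 to 44.0 with the miR-375 inhibitor, at -0.24 on the log2 scale. Both of these genes were lower without overlap. RNF168, a ligase of the DNA damage response, had a log2 fold change of -0.01 with overlapping groups. RNF113A, a ligase of the spliceosome, had 119 to 132 with inhibitor NC and 123, 129 and 169 with the miR-375 inhibitor. Replicate 3 alone was high, and the log2 fold change of 0.17 became 0.02 without it. How reads that RNF113A shares with its close relative RNF113B were counted is not given in the sources used here.

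Cullin and adaptor genes were not called. CUL4B, the scaffold of a nuclear cullin ligase, had 983, 1004 and 1037 with inhibitor NC and 962, 918 and 899 with the miR-375 inhibitor. All miR-375 inhibitor libraries were lower. Its log2 fold change was -0.12 ± 0.07 (SE) (edgeR quasi-likelihood, Benjamini-Hochberg adjusted p = 0.553).

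Of the F-box genes, FBXO25 had 245 to 272 with inhibitor NC and 274 to 296 with the miR-375 inhibitor, higher without overlap at a log2 fold change of 0.13. FBXO45 had 157 to 167 with inhibitor NC and 165, 107 and 174 with the miR-375 inhibitor. Only replicate 2 of the miR-375 inhibitor group was low, and the log2 fold change of -0.13 became 0.05 without it. Of the kelch-like adaptors of CUL3 ligases, KLHL13 had a log2 fold change of 0.00 with overlapping groups. KLHL24, known for its part in keratin turnover, had 256, 247 and 345 with inhibitor NC and 231, 225 and 351 with the miR-375 inhibitor. Replicate 3 was well above the other libraries in both groups, and the difference between groups was -0.07 on the log2 scale. ASB12, a SOCS-box adaptor, had 8 to 15 raw counts in a library, at a log2 fold change of 0.12 with a 95% interval from -0.77 to 1.01.

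Deubiquitinases had 1 member, USP25, with an unadjusted p under 0.05, and none was called. USP25 (ENSBTAG00000019314), a deubiquitinase that acts on chains in immune signalling, had 634, 564 and 547 with inhibitor NC and 504, 513 and 408 with the miR-375 inhibitor. All miR-375 inhibitor libraries were lower, and replicate 3 was the lowest in each group. The log2 fold change was -0.29 ± 0.09 (SE), with a 95% interval from -0.47 to -0.12 and unadjusted p = 0.00137 (edgeR quasi-likelihood, Benjamini-Hochberg adjusted p = 0.0704). In edgeR with the same adjustment, it was called in the robust fit (adjusted p = 0.036), without inhibitor NC replicate 3 (0.00999) and without miR-375 inhibitor replicate 2 (0.0151). Its estimate was -0.19 without miR-375 inhibitor replicate 3 and -0.23 without inhibitor NC replicate 1, with Benjamini-Hochberg adjusted p of 0.458 and 0.623 in edgeR. The adjusted p over all alternatives ran from 0.00684 to 0.623.

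USP13 had 199, 177 and 176 with inhibitor NC and 155, 138 and 169 with the miR-375 inhibitor. These groups did not overlap either, with a log2 fold change of -0.25 and an unadjusted p of 0.0502 in edgeR. USP16, which removes ubiquitin from a core histone, had 1451, 1475 and 1485 with inhibitor NC and 1426, 1493 and 1487 with the miR-375 inhibitor. Replicate 1 of the miR-375 inhibitor group was the lowest and its replicate 2 the highest. Its estimate on the log2 scale was -0.00 ± 0.06 (SE) (edgeR quasi-likelihood, Benjamini-Hochberg adjusted p = 0.997).

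OTUD5, an ovarian-tumour-domain protease, had 1222 to 1229 with inhibitor NC and 1281 to 1307 with the miR-375 inhibitor, higher without overlap at 0.08 on the log2 scale. USP11 had a log2 fold change of 0.04, and its groups overlapped. USP27X had 23.4, 27.6 and 41.3 with inhibitor NC and 29.9, 22.1 and 35.4 with the miR-375 inhibitor. Replicate 3 was the highest in each group, and the log2 fold change was -0.08. Reads shared with its relative USP22 leave the level of USP27X uncertain, since their counting is not given in the sources used here.

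No proteasome gene was called. PSMD2, a large base subunit of the regulatory particle, had 7157, 7262 and 7581 with inhibitor NC and 7689.7, 7799.5 and 7727 with the miR-375 inhibitor. All miR-375 inhibitor libraries were higher, and they varied less than the inhibitor NC libraries. This gave a log2 fold change of 0.08 ± 0.05 (SE), with a 95% interval from -0.02 to 0.17 (edgeR quasi-likelihood, Benjamini-Hochberg adjusted p = 0.596). The assembly chaperones PSMD10 and PSMG1 had log2 fold changes of -0.03 and -0.02 with overlapping groups. The sum of these 3 genes was 8467 ± 279 (SD, n = 3) with inhibitor NC and 8855 ± 55.2 (SD, n = 3) with the miR-375 inhibitor.

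UBASH3A, a ubiquitin-binding regulator known from T cells, had 16, 18 and 16 raw counts with inhibitor NC and 21, 17 and 28 with the miR-375 inhibitor. After normalization each miR-375 inhibitor library was higher, replicate 2 by little (17.9 against at most 17.1). This gave a log2 fold change of 0.42 ± 0.33 (SE) (edgeR quasi-likelihood, Benjamini-Hochberg adjusted p = 0.711).

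**Figure D2:**
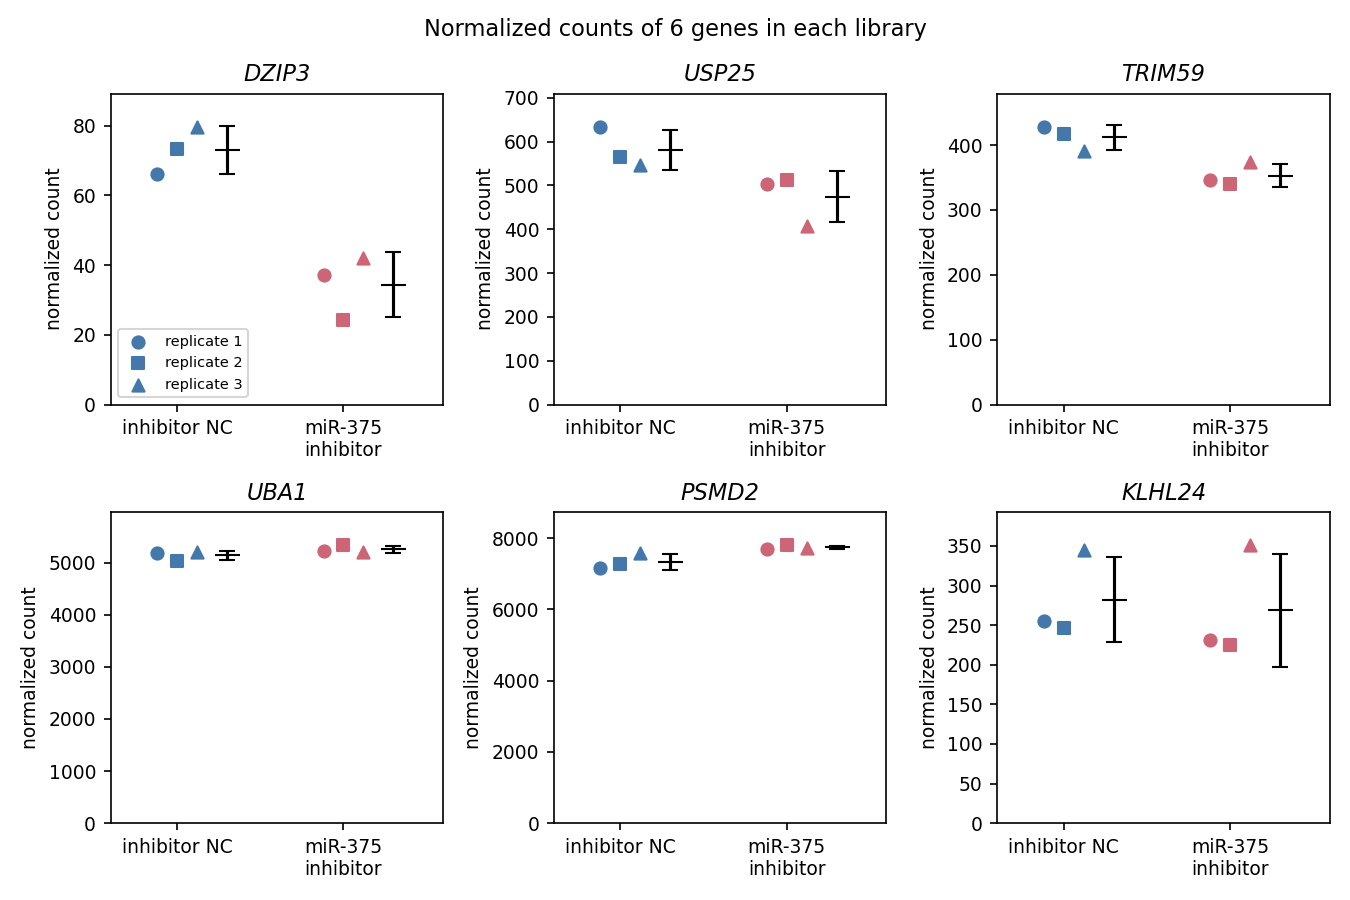
Normalized count (vertical axis, from 0) of 6 members in each library of the inhibitor NC and miR-375 inhibitor groups; marker shapes give the replicate number, and the dash with bars gives the mean ± SD of 3 libraries. The groups of DZIP3, USP25 and TRIM59 do not overlap, those of UBA1 and PSMD2 are separated by little, and KLHL24 is highest in replicate 3 of each group.

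Standard errors on the log2 scale were 0.05 to 0.14 for members with 100 or more counts on average. They were 0.21 to 0.44 for members with lower means. For the 22 members with 100 or more counts on average, estimates ran from -0.29 to 0.17 on the log2 scale, and the 95% interval lay within 0.5 of 0 for 21 of them. The exception was USP13. The median coefficient of variation between libraries of a group was 4.54% for these genes. It was 19.6% for the 5 members with lower means, whose estimates ran from -1.08 to 0.42. Spread was not set by depth alone: KLHL24, among the 22, had 19.2% with inhibitor NC and 26.4% with the miR-375 inhibitor. Intervals of this width do not show that a member was the same in both groups.

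Single libraries stood apart for several members. Replicate 3 was the highest library of both groups in 6 of 27 members, UBE2G2, DZIP3, RNF128, KLHL24, USP27X and PSMG1, and the lowest of both in 1, USP25. Replicate 2 of the miR-375 inhibitor group was the lowest of the 6 libraries in 10 of 27 members and the highest in 8. The part of these libraries in the differences was not tested beyond leaving each out. The counts of highest and lowest libraries were not taken over all genes, so they are not read as a trait of the members.

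A further 28 genes of the ubiquitin system and related modifiers, whose symbols carry none of the stems, were read in the same test. Only LONRF3 was called, lower with the inhibitor, and 27 were not, where 1.2% of all genes were called lower. The unadjusted p was under 0.05 for 4 of the 28, all lower (3 to 9 with a library left out), where 5.96% of all genes were lower at that limit and 10.6% passed in either direction. Their median log2 fold change was -0.08, beside -0.0019 over all genes, with 20 below 0 and 8 above. The groups did not overlap in 6 of them, all lower, where 7.09% of all genes and 8.83% of those with 10 or more counts on average were ordered so. Estimates were below 0 for 12 of 13 ligases, of which 1 was called. They were also below 0 for 3 of 4 ubiquitin-like or ubiquitin-binding genes, 2 of 2 ATG8 conjugation genes and the 1 deubiquitinase. Estimates above 0 were found for 3 of 4 ligase subunits or regulators and for 3 of 4 SUMO genes. For many of the ligases, XIAP, RLIM, HUWE1 and HLTF among them, miR-375 inhibitor replicate 2 was the lowest library. The 28 genes were a chosen list, and the share of all genes with estimates below 0 was not taken. None of the counts for these 28 genes was tested.

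LONRF3 (ENSBTAG00000002615), a RING ligase with a Lon-type domain, had 244, 229.6 and 238 with inhibitor NC and 163, 157 and 202 with the miR-375 inhibitor. All miR-375 inhibitor libraries were lower, replicate 3 the least. The log2 fold change was -0.45 ± 0.12 (SE) (edgeR quasi-likelihood, Benjamini-Hochberg adjusted p = 0.0307). The call was lost over genes with at least 10 counts in total, after filterByExpr, and without inhibitor NC replicate 1 or 2 or miR-375 inhibitor replicate 1 or 2, with an adjusted p of up to 0.436 in these edgeR fits, while the estimate ran from -0.57 to -0.38 over all edgeR alternatives. With DESeq2 without independent filtering 0 of the 28 were called, with 3 at an unadjusted p under 0.05. CBLB, a ligase for receptor tyrosine kinases, had 284, 283 and 310 with inhibitor NC and 229, 215 and 256 with the miR-375 inhibitor. These groups did not overlap, at a log2 fold change of -0.32 (edgeR quasi-likelihood, Benjamini-Hochberg adjusted p = 0.125). XIAP, a RING protein that blocks caspases, had a log2 fold change of -0.24, and miR-375 inhibitor replicate 2 was its lowest library at 314. Without that library the estimate was -0.10, and the unadjusted p of 0.0167 in edgeR became 0.294. It was 0.0626 in DESeq2 and 0.0553 and 0.0596 in edgeR under the count filters. IQUB had 13, 14 and 13 raw counts with inhibitor NC and 4, 4 and 7 with the miR-375 inhibitor, at a log2 fold change of -1.37 and an unadjusted p of 0.0109 in edgeR.

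**Figure D3:**
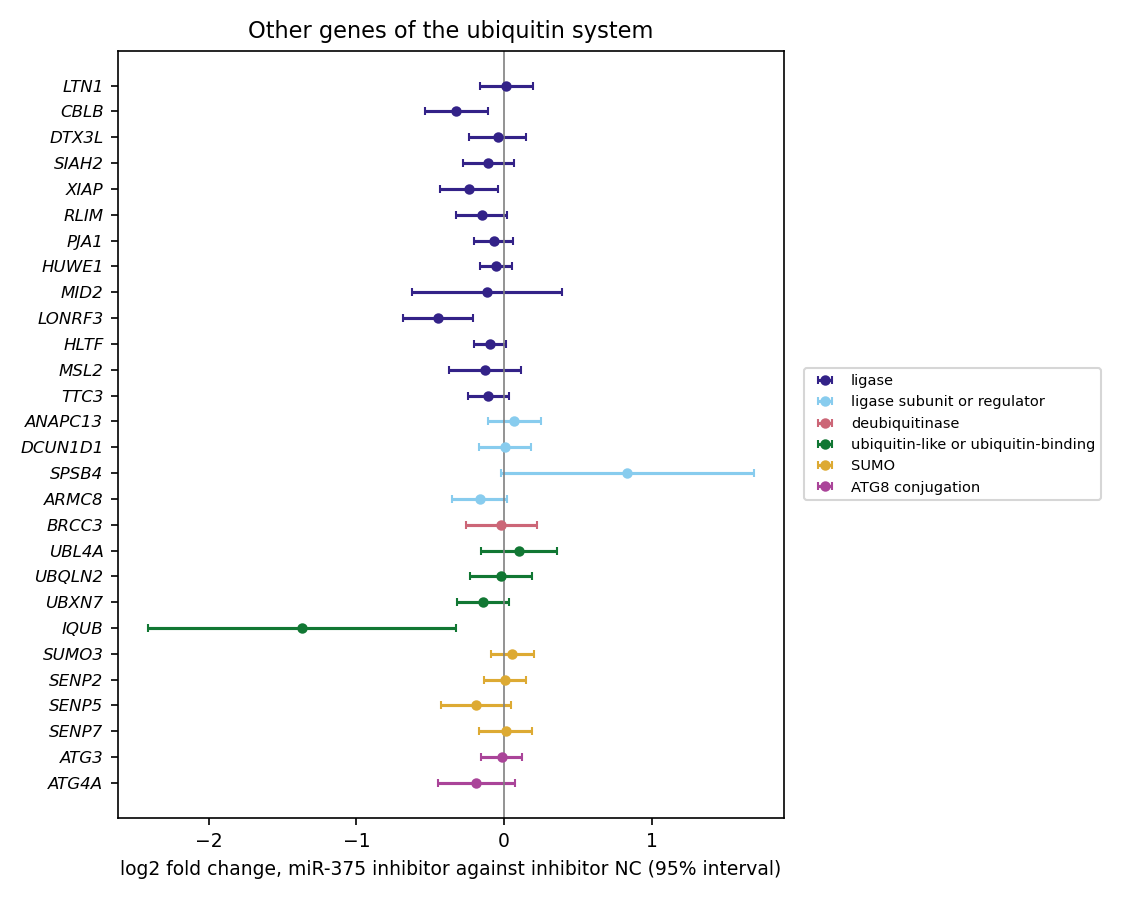
Log2 fold change of the miR-375 inhibitor against the inhibitor NC group (horizontal axis) for 28 other genes of the ubiquitin system and related modifiers, coloured by role. Points are edgeR estimates and bars 95% intervals. LONRF3 lies at -0.45, and IQUB at -1.37 with a wide interval.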

How the data were processed

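RNA-seq of MAC-T cells gave 3 libraries in each group. The authors deposited raw counts per gene for each library, made with HISAT2 on the bovine build UMD3.1 and featureCounts, without normalization; versions and the strand setting are not given in the sources used here. Symbols came from the study's own gene tables. Only the first 1997 entries of the long one were read, so genes with a symbol were not drawn at random from all genes. Counts were normalized by TMM and compared with edgeR 4.0.16 in R 4.3.3 (quasi-likelihood F test, two-sided, Benjamini-Hochberg adjustment) over 20755 genes with at least 1 count, called at an adjusted p under 0.05. DESeq2 1.42.0 was an alternative. Other values were computed in Python 3.11.15. The code was tested on simulated data. Libraries were not duplicates, since over 15 pairs chi-square divided by its degrees of freedom was at least 3.01. Intervals are 95% and counts up to 3 were read as the floor.

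Members and lists were chosen with earlier results of these data known. Every member was named once, except 1 that is not reported here. Full values were given for DZIP3, members with an unadjusted p under 0.05 and the member with the highest mean normalized count of each role (an order of counts, not of transcript levels); of the other genes, those with an adjusted p under 0.05 were named. Values by library for USP13, KLHL24, FBXO45, USP27X and RNF113A, and for CBLB, XIAP and IQUB, were given after they were seen. SPSB4 was also named after its value was seen.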

Additional observations from a re-analysis of the deposited data

How the results depend on the processing

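The number of genes called, 350 in edgeR, was 75 with DESeq2, 39 with DESeq2 without independent filtering (chosen after the data were seen), 0 over genes with at least 10 counts in total (1972 at an unadjusted p under 0.05), 0 after filterByExpr (1844) and 0 to 756 with a library left out. Prior degrees of freedom were 51.4, and 9.46 and 8.26 under the 2 filters. Members called, 1 in edgeR, were 0 with both DESeq2 fits and both filters. They were 2 in the robust fit and 0 to 2 with a library left out. Of the other genes of the ubiquitin system and related modifiers, 1 was called in edgeR. This number was 0 with both DESeq2 fits and both filters and 0 to 1 with a library left out. At an unadjusted p under 0.05, 3 members passed with DESeq2 and with both filters, 2 to 5 with a library left out and 5 with the replicate block; the other genes that passed, 4 in edgeR, were 3 with DESeq2 and both filters, 3 to 9 with a library left out and 7 with the block. With independent filtering, DESeq2 gave no adjusted p for 14 members, DZIP3 included, and 12 other genes. The estimate of DZIP3 was -1.08 with DESeq2 without independent filtering, -1.08 under each filter and -1.25 to -0.88 with a library left out. The cause of the lost calls was not tested.

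With the replicate number as a block, edgeR called 840 genes, 2 members (DZIP3 and USP25) and 2 other ubiquitin genes, and RNF13 moved to -5.1e-05. Same-numbered libraries had correlations of -0.0348, 0.103 and 0.247 over 14154 genes, and inhibitor NC replicate 1 was closest to miR-375 inhibitor replicate 2, so the numbers were not taken to pair the samples.

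Of 30 single-gene estimates besides DZIP3, 19 kept their sign in every alternative that gave them an adjusted p (without DESeq2 for many) and 11 changed it, all 11 with a library left out: RNF13 (-0.032 to 0.038), RNF168 (-0.085 to 0.054), FBXO45 (-0.26 to 0.052), KLHL13 (-0.028 to 0.046), KLHL24 (-0.31 to 0.10), ASB12 (-0.13 to 0.36), USP11 (-0.024 to 0.080), USP16 (-0.014 to 0.019), USP27X (-0.25 to 0.19), PSMD10 (-0.078 to 0.028) and PSMG1 (-0.077 to 0.025). Of these, none was called. The count of 14 members without overlap was the same with DESeq2's size factors.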
